A study of Mus musculus with 74 samples.

Results

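The hypoxia-inducible factors (HIFs), the enzymes that sense oxygen for them and a set of their well-known target genes, among them enzymes of glycolysis, were followed in liver and in white and brown adipose tissue of mice. The genes were a list of 34 symbols, given by name with no threshold on a measured value but drawn up when earlier results of these data were known. Of these, 33 were measured among the 18193 genes of the array. Gpi1, which encodes glucose-6-phosphate isomerase, had no probe set carrying that single symbol and is not analysed here. Each gene was read from the one of its probe sets with the highest mean over all 74 arrays, and a level is the log2 of the deposited intensity. Levels of different genes come from different probes and were not set against each other.

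Male B6C3F1 mice, a hybrid strain, were dosed with 1 of 3 agents or with vehicle for 15 or 29 days, 1 array for each mouse and tissue. The study asked when changes of proliferation or of hypoxia arise in tissues prone to hemangiosarcoma, a tumour of endothelial cells. Fenretinide, a synthetic retinoid, was given in the diet at 500 mg/kg, and white adipose was profiled in 3 vehicle and 3 treated mice at 15 days and in 4 and 4 at 29 days. Troglitazone, an agonist of the nuclear receptor PPARγ, was given orally at 1200 mg/kg, with brown adipose and liver profiled in 5 vehicle and 5 treated mice a day. Elmiron (pentosan polysulfate), a sulfated polysaccharide, was given orally at 1000 mg/kg, with liver profiled in the same numbers. Each agent had its own study and its own vehicle mice, so agent, dose and study cannot be told apart. The age of the mice is not given in the labels used here.

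HIFs are made of an oxygen-regulated alpha subunit, encoded by Hif1a, Epas1 or Hif3a, and a constant partner encoded by Arnt. With oxygen present, prolyl hydroxylases such as those of Egln1 and Egln3 mark the alpha subunit, the Vhl protein binds it and it is degraded, so that much of the control acts on the protein and not on its transcript. Without oxygen the pair binds DNA at the core letters ACGTG or GCGTG and raises genes of glucose uptake, glycolysis, lactate export, pH control, mitochondrial turnover and collagen processing. Brown adipose burns glucose and fatty acids for heat, and liver both uses and makes glucose.

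The promoters of 5 genes on which the results below turn are printed to show the core letters around their starts. Ankrd37 and Stc2 were the genes that changed with fenretinide, Hk2 and Pfkp had the largest differences between brown adipose and liver, and Ldha had a promoter with the most matches to the core letters among those of the list. Each run is the first promoter listed for the gene in RefSeq on mouse build GRCm38.p6, from 250 bases before the start to 50 after it, 5′ to 3′ on the gene's strand, and capitals mark ACGTG and GCGTG together with their reverse complements CACGT and CACGC.
Ankrd37: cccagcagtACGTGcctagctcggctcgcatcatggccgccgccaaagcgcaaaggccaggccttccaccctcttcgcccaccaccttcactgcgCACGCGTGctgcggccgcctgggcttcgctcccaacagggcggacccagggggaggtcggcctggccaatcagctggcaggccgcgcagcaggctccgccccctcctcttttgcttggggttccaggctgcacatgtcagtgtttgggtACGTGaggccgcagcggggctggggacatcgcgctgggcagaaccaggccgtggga
Stc2: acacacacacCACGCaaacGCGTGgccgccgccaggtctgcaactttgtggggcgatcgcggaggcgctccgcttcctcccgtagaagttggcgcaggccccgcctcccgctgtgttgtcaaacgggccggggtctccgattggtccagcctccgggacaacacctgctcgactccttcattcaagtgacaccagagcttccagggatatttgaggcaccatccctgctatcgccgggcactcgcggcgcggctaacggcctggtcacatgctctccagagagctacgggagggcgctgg
Hk2: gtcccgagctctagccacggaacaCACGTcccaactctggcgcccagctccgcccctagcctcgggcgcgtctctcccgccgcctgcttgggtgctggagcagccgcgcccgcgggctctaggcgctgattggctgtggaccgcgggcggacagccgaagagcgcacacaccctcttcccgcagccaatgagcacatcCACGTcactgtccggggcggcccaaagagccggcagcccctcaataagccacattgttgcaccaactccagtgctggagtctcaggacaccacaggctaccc
Pfkp: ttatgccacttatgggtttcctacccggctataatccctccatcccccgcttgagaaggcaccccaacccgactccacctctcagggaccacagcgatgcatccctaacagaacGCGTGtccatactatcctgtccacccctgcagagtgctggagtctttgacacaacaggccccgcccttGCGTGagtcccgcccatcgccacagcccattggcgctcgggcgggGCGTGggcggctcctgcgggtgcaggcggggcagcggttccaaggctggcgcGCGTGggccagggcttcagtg
Ldha: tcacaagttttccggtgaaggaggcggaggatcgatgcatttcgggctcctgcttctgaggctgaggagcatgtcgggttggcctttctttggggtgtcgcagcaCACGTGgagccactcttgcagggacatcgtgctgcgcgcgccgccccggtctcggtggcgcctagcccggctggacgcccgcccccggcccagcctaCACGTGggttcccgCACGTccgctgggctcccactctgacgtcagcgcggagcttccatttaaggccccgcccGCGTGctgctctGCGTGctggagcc
The Ankrd37 promoter lies at chr8:45999801-46000100 and the Stc2 promoter at chr11:31370012-31370311, both on the minus strand. The Hk2 promoter lies at chr6:82774405-82774704 and the Pfkp promoter at chr13:6648722-6649021, also on the minus strand, and the Ldha promoter at chr7:46845554-46845853 on the plus strand. Counting overlapping matches on both strands, the runs hold 4 matches for Ankrd37, 2 for Stc2, 2 for Hk2, 4 for Pfkp and 7 for Ldha. Of the 34 genes, 31 had a listed promoter, and in 27 of these at least 1 promoter held a match. By promoter, 32 of 41 (78.0%) held a match, beside 43.8% of all 32851 listed promoters. The ACGTG form or its reverse complement was in 23 of the 41 (56.1%), beside 19.6% of all. The list was made up largely of known HIF targets, and genes with several listed promoters count more than once. These shares therefore describe the list and are not a result about it. A match of letters is a description and not a bound site.

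Most tissues carried the level of the markers that define them, but a few libraries stood apart. The 18 other brown adipose libraries had a mean level of 12 brown adipocyte markers between 11.34 and 11.73, while the libraries labelled brown adipose of vehicle mouse 82 and troglitazone mouse 95, both at 29 days, had 6.87 and 7.52 and a white adipocyte level of 11.50. Ucp1, the heat-producing uncoupling protein that defines brown adipocytes, was at 5.91 and 8.10 in these and at 14.91 or more in all brown libraries at 15 days. Mouse 82 also had hepatocyte markers at 12.17, beside 6.89 to 8.89 in the 18. Results for brown adipose are given with every library in, and without both libraries where that changes a call or moves a called value by over 1.5 times. The liver of Elmiron mouse 92 at 29 days had brown adipocyte markers at 7.54, beside 6.64 to 6.92 in the other livers, and Ucp1 reached 9.64 in its group, where the median was 6.04. Leaving it out changed no count of called genes. In white adipose at 15 days, 16 epithelium markers had a level of 9.28 to 10.13 in treated and 6.62 to 7.32 in vehicle mice. At 29 days markers of other tissues varied widely between the white libraries of both groups. Brown adipocyte markers were at 7.14 to 10.59 in treated and 6.38 to 8.95 in vehicle mice. Hepatocyte markers were at 7.73 to 11.67 and 7.57 to 10.67, and skeletal muscle markers at 6.45 to 10.85 and 6.61 to 9.95.

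Each agent was compared with its own vehicle in 8 comparisons, and with every library in, genes of hypoxia and glycolysis were called in those of white adipose, in 3 instances from 2 genes. With fenretinide at 15 days Ankrd37 was higher and Stc2 lower, and at 29 days Stc2 was lower, by limma with Benjamini-Hochberg adjustment over all genes at 0.05, the threshold for a call throughout. The 6 comparisons in brown adipose and liver, with every library in, called 0 of the 33. The median change of the 33 lay between -0.10 and 0.06 on the log2 scale over the 8 comparisons, and the median of all genes between -0.04 and 0.01. In bulk tissue, a change in the share of a cell type and a change in RNA per cell cannot be told apart.

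**Figure D1:**
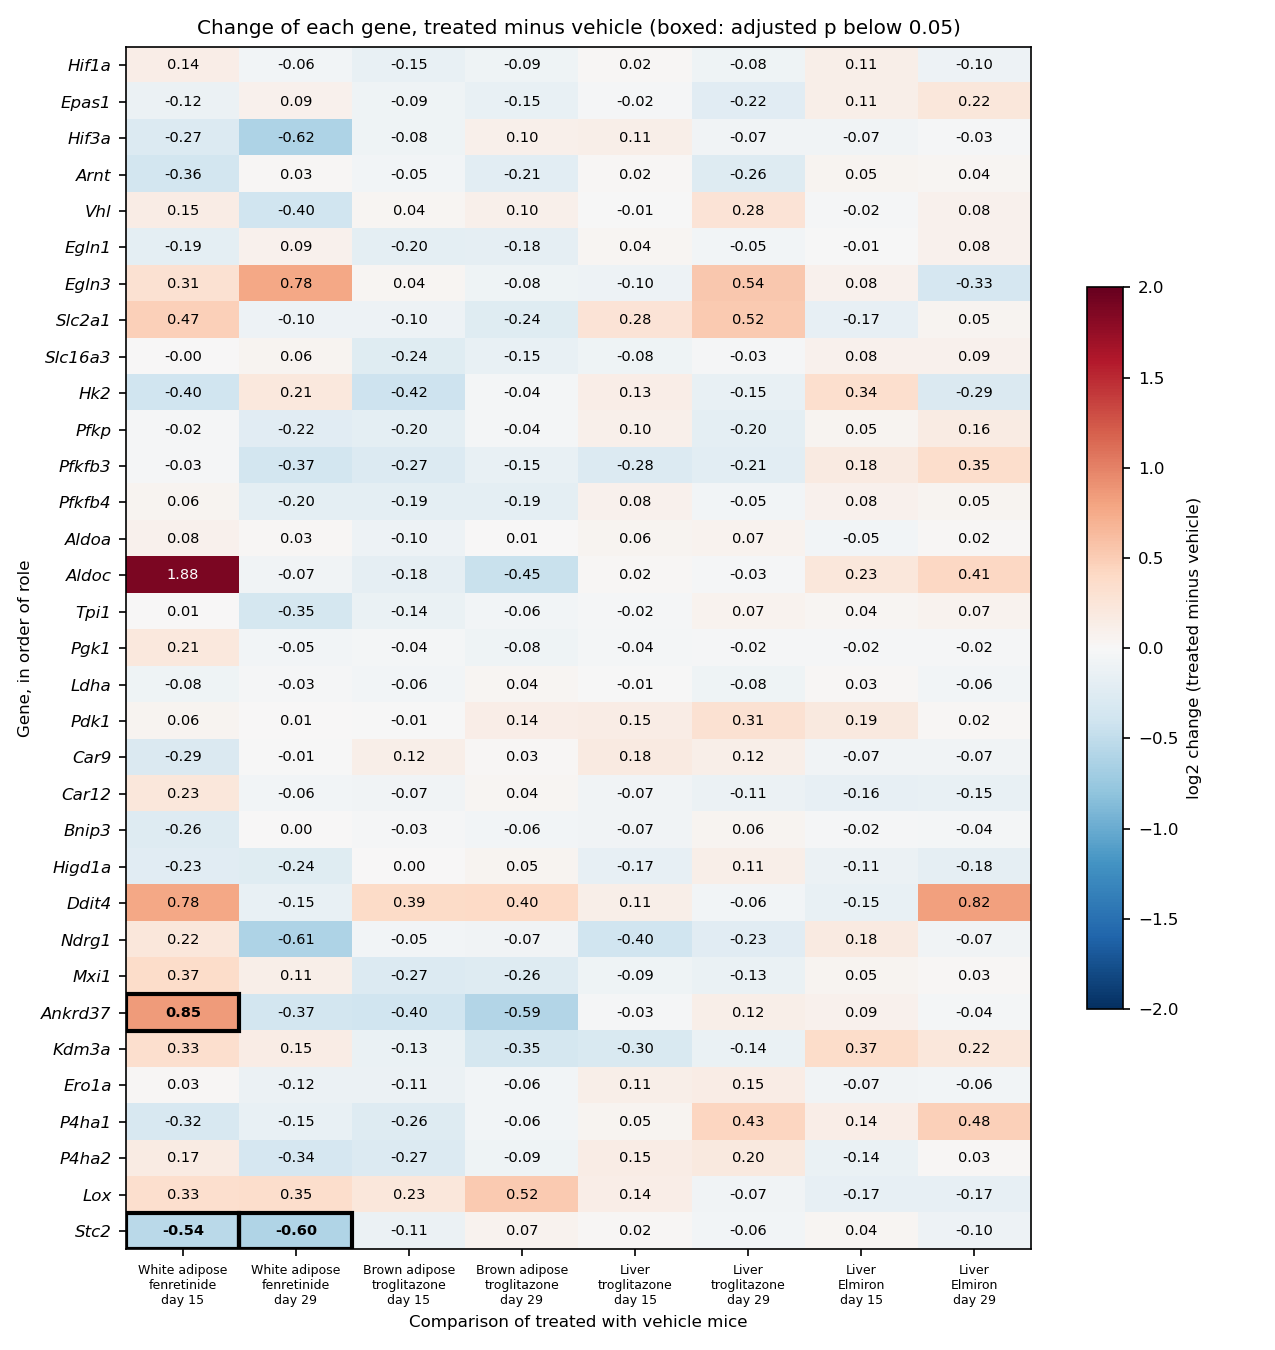
Log2 change, treated minus vehicle, of the 33 measured genes (rows, by role) in the 8 comparisons (columns), with each value printed and called changes boxed. The boxes are Ankrd37 (0.85) and Stc2 (-0.54) in white adipose at 15 days and Stc2 (-0.60) at 29 days, and the largest value, Aldoc at 1.88, is not called.

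In white adipose after 15 days of fenretinide, 2 of the 33 genes were called, 1 higher and 1 lower. Of all genes 3.95% were called, 3.27% higher and 0.682% lower, beside 6.06% of the 33. With quantile normalization 3 were called, 1 higher and 2 lower. At an unadjusted p below 0.05 there were 6 of 33, beside 19.7% of all genes. Treated values lay wholly above or below the vehicle values for 12 of 33 genes, 6 higher and 6 lower, beside 27.9% of all genes. The median change was 0.06 over the 33 and -0.04 over all genes.

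The transcripts of the HIF subunits did not pass the test. Hif1a, the alpha subunit of the classic hypoxia response, was at 12.08, 12.08 and 12.57 in vehicle mice 48, 49 and 50 and at 12.38, 12.50 and 12.27 in fenretinide mice 57, 58 and 59. The 2 sets of values overlapped, with a change of 0.14 ± 0.32 (SE) and a 95% interval of -0.56 to 0.83 (adjusted p = 0.854). Arnt, their shared partner, had no overlap and a change of -0.36 ± 0.10 (adjusted p = 0.0645), while Epas1 and Hif3a had changes of -0.12 and -0.27. Among the oxygen sensors and Vhl, the changes were 0.15 for Vhl, -0.19 for Egln1 and 0.31 for Egln3.

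Ankrd37, an ankyrin repeat protein whose gene is a direct HIF-1 target, was the gene that rose. Its level was 5.53, 5.80 and 5.33 in the 3 vehicle mice and 6.24, 6.85 and 6.12 in the 3 treated mice. Every treated value lay above every vehicle value, with means of 6.40 ± 0.39 (SD, n = 3) and 5.56 ± 0.24 (SD, n = 3). The change was 0.85 ± 0.19 (SE) on the log2 scale, with an adjusted p of 0.0278. These values lie near or below the array medians of 6.80 to 6.94 and carry no detection call, so no fold is given. The call was lost without vehicle mouse 48 or 50 or treated mouse 58, with adjusted p-values of 0.0931, 0.119 and 0.085, and in a fit of these groups alone (adjusted p = 0.120).

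Stc2, a secreted glycoprotein of the stanniocalcin family that is induced by hypoxia and by stress of the endoplasmic reticulum, was the gene that fell. Vehicle mice were at 8.39, 8.14 and 8.04 and treated mice at 7.49, 7.95 and 7.50. All treated values were below all vehicle values, and Stc2 fell by 0.54 ± 0.14 (SE) on the log2 scale (adjusted p = 0.0472). The 2 other probe sets of Stc2 had differences of -0.66 and -0.93, also with no overlap. The call was lost without vehicle mouse 48, 49 or 50 or treated mouse 57 or 59, with adjusted p-values of 0.0691 to 0.175, with trended and robust eBayes (adjusted p = 0.0529) and in a fit of these groups alone (adjusted p = 0.153).

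The largest change of all 33 genes was not called. Aldoc, an aldolase of brain and liver and a HIF target, was at 5.99, 6.71 and 6.19 in vehicle mice and at 8.82, 9.13 and 6.58 in treated mice 57, 58 and 59. Mice 57 and 58 were far above the vehicle mice and mouse 59 was within their range, so that the change was 1.88 ± 0.51 (SE) with an adjusted p of 0.0593. Without mouse 59 it was 2.67 (adjusted p = 3.81e-05), and the other probe set of Aldoc, with a lower signal, differed the other way, by -0.31. Aldoc was chosen for these values after they were seen.

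The remaining genes are given by role. Of the transporters, Slc2a1, the glucose carrier GLUT1, was at 8.97 to 9.30 in treated and 8.84, 8.52 and 8.50 in vehicle mice, a change of 0.47 (adjusted p = 0.108), and Slc16a3, a lactate exporter, had a change of -0.00. Of the other 9 glycolytic genes, Hk2, the hexokinase of muscle and fat, had a change of -0.40 and Pgk1, phosphoglycerate kinase, 0.21. The other 7, Pfkp, Pfkfb3, Pfkfb4, Aldoa, Tpi1, Ldha and Pdk1, lay between -0.08 and 0.08. The carbonic anhydrases of pH control, Car9 and Car12, had changes of -0.29 and 0.23. Ddit4, an inhibitor of mTORC1 raised by hypoxia, had a change of 0.78 and Mxi1, an antagonist of Myc, 0.37, neither called. The mitochondrial proteins Bnip3 and Higd1a had changes of -0.26 and -0.23, Ndrg1 0.22, the histone demethylase Kdm3a 0.33 and the endoplasmic oxidase Ero1a 0.03. Of the matrix genes, the collagen prolyl hydroxylases P4ha1 and P4ha2 had -0.32 and 0.17 and Lox, lysyl oxidase, 0.33.

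Markers of another tissue also differed between these groups. Of 16 measured epithelium markers 10 were called higher with fenretinide at 15 days, with a median change of 2.30, and Cdh1, E-cadherin, was at 8.05 to 9.84 in the treated and 3.76 to 4.09 in the vehicle mice. Their part in the changes of Ankrd37, Stc2 and Aldoc was not tested. Of 8 epididymis markers 0 were called by limma and their level was 5.69 to 5.93 in the treated and 5.89 to 5.99 in the vehicle mice.

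After 29 days of fenretinide, 1 of the 33 genes was called, beside 1.34% of all genes (0.929% lower), and it was again Stc2. At an unadjusted p below 0.05 there were 8 of 33, beside 14.8% of all genes, and the median change was -0.06 over the 33 and -0.02 over all genes. Vehicle mice 81, 83, 85 and 86 were at 8.25, 8.51, 8.37 and 8.21, and fenretinide mice 91, 93, 94 and 95 at 7.73, 7.79, 7.85 and 7.58. The groups were well apart, with means of 8.34 ± 0.13 (SD, n = 4) and 7.74 ± 0.11 (SD, n = 4), and Stc2 fell by 0.60 ± 0.12 (SE) on the log2 scale (adjusted p = 0.0354). The other 2 probe sets gave -1.31 and -1.79, both with no overlap. The call was lost without any 1 of the mice other than vehicle mouse 86, with adjusted p-values of 0.0559 to 0.0893, and also in a fit of these groups alone (adjusted p = 0.0532). Without vehicle mouse 86 P4ha2 was called beside Stc2. Without the 4 libraries with the most brown adipocyte or hepatocyte signal (vehicle mice 85 and 86, fenretinide mice 93 and 95) the change was -0.59 with an adjusted p of 0.274.

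Hif1a at 29 days was at 12.05, 12.59, 12.52 and 12.77 in vehicle and at 13.43, 12.36, 11.96 and 11.95 in treated mice. Mouse 91 was above every other mouse and the rest overlapped, with a change of -0.06 ± 0.28 (SE) (adjusted p = 0.963). Hif3a, an alpha subunit whose short forms can oppose the others, was lower with no overlap, at 8.02 to 8.72 in treated and 8.84 to 9.21 in vehicle mice, but missed the call with a change of -0.62 (adjusted p = 0.0838). Hif3a and Stc2 were the only 2 of the 33 without overlap, beside 8.75% of all genes. Egln3, an oxygen sensor that is itself raised by HIF, had a change of 0.78 (adjusted p = 0.168) and Vhl one of -0.40. Aldoc was at 6.33 to 6.65 in vehicle mice and at 5.77, 6.76, 6.62 and 6.76 in treated mice, a change of -0.07 ± 0.44 (SE, adjusted p = 0.975). Ankrd37 was at 5.59 to 5.96 in vehicle and 5.26 to 5.69 in treated mice, a change of -0.37 (adjusted p = 0.328). Over all other genes of the list the changes ran from -0.61 for Ndrg1 to 0.35 for Lox.

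**Figure D2:**
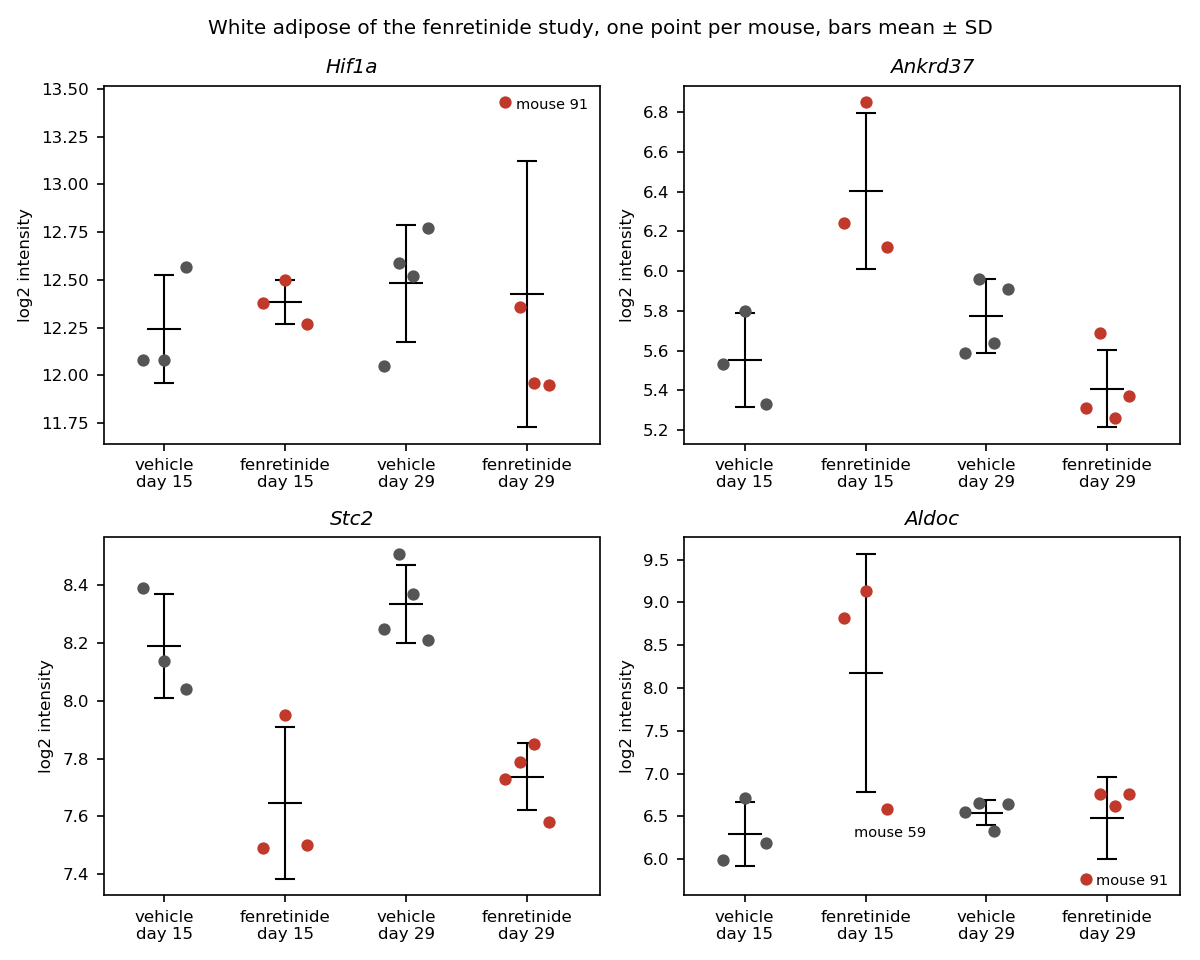
Log2 intensity (vertical axes) of Hif1a, Ankrd37, Stc2 and Aldoc in each mouse of the 4 white adipose groups (horizontal axes), with mean ± SD. Stc2 is lower in all treated mice on both days, Ankrd37 is higher in the treated mice at 15 days only, Aldoc is high in 2 of 3 treated mice at 15 days, and Hif1a overlaps on both days.

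The effect of fenretinide differed between the days for 1 gene, Ankrd37. Its change went from 0.85 at 15 days to -0.37 at 29 days, a difference of -1.21 ± 0.26 (SE) with an adjusted p of 0.0371. Of all genes 1.33% were called in this comparison and 1.27% were lower. In the same comparison 10 of 16 epithelium markers were called lower, with a median of -2.47, and their part was not tested. The difference for Stc2 was not called.

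Genes of the same pathway outside the list of 34 are counted beside the calls over all genes, 3.95% at 15 days and 1.34% at 29 days. Of 29 other hypoxia-responsive genes 1 was called at 15 days, Igfbp3, which encodes an IGF-binding protein, with a change of 1.28 ± 0.28 (SE). At 29 days 2 were called, Adm, the vasodilator adrenomedullin (1.44 ± 0.27), and Jmjd6, a dioxygenase (0.31 ± 0.07). Of 23 other glycolytic genes 1 was called, Pdk3, a pyruvate dehydrogenase kinase, lower at 29 days (-0.56 ± 0.12). Of 13 other HIF regulators 0 were called on either day by limma, with 1 and 0 at an unadjusted p below 0.05, beside 19.7% and 14.8% of all genes.

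In brown adipose with every library in, 0 of the 33 genes were called by limma after troglitazone on either day, beside 0.0605% of all genes at 15 days (0.0495% higher, 0.0110% lower) and 0.0550% at 29 days (0.0275% in each direction). At an unadjusted p below 0.05 there were 2 and 4 genes, beside 3.75% and 6.01% of all genes. The changes ran from -0.42 for Hk2 to 0.39 for Ddit4 at 15 days, with 27 of 33 below 0 and a median of -0.10 beside 0.00 over all genes. At 29 days they ran from -0.59 for Ankrd37 to 0.52 for Lox, with a median of -0.06 beside 0.01, and Ankrd37 was the 1 gene without overlap, beside 0.759% of all genes. Hif1a at 15 days was at 11.92, 11.86, 11.84, 11.79 and 11.97 in vehicle mice 41 to 45 and at 11.79, 11.67, 11.76, 11.78 and 11.65 in treated mice 51 to 55. The treated mice were at or below the lowest vehicle mouse, and the change was -0.15 ± 0.11 (SE) (adjusted p = 1). At 29 days vehicle mice 82 to 86 were at 11.99, 11.96, 11.78, 11.87 and 11.94, and treated mice 91 to 95 at 11.78, 11.77, 11.68, 11.51 and 12.33. The values overlapped through mouse 95, with a change of -0.09 ± 0.11 (SE) (adjusted p = 0.988).

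Without the libraries of mice 82 and 95, an alternative chosen after the data were seen, 1 gene was called on each day. At 15 days, when both groups are the same 5 and 5 mice and only the shared spread differs, Hk2 was called lower, beside 0.951% of all genes. Hk2 was at 13.36, 13.30, 13.30, 13.46 and 13.30 in vehicle mice and at 13.03, 12.83, 13.14, 13.11 and 12.52 in treated mice. All treated values lay below all vehicle values. Hk2 fell by 0.42 ± 0.09 (SE) on the log2 scale, 1.34-fold, with an adjusted p of 0.0422, against an adjusted p of 1 with every library in. With every library in, Hk2, Aldoa and Mxi1 were the 3 of 33 without overlap at 15 days, all lower, beside 3.25% of all genes.

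At 29 days Lox, which cross-links collagen and elastin, was called higher without mice 82 and 95, beside 1.09% of all genes. The 4 remaining vehicle mice were at 8.50, 9.06, 8.42 and 9.11 and the 4 remaining treated mice at 9.60, 9.58, 9.54 and 9.20. The treated mice were all above the vehicle mice, with a change of 0.71 ± 0.14 (SE), 1.64-fold (adjusted p = 0.0213). With mouse 82 at 10.19 and mouse 95 at 9.93 in the fit, the change was 0.52 with an adjusted p of 0.770, and without mouse 82 alone it was 0.80 with an adjusted p of 0.0248. At 15 days the change of Lox was 0.23, not called. Hk2 at 29 days was at 13.26 to 13.37 in the 4 vehicle and 13.01 to 13.23 in the 4 treated mice, a change of -0.19 (adjusted p = 0.414).

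**Figure D3:**
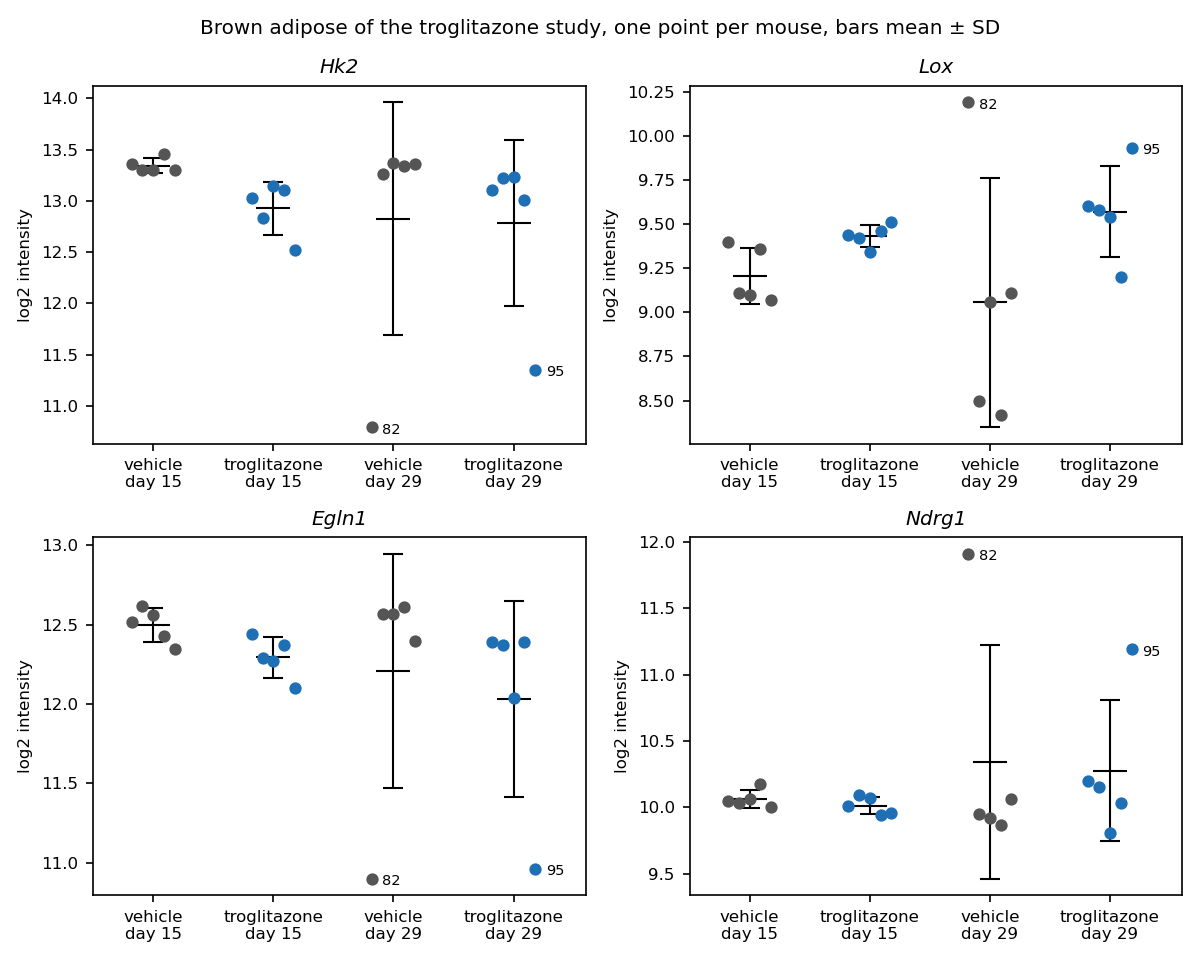
Log2 intensity (vertical axes) of Hk2, Lox, Egln1 and Ndrg1 in each mouse of the 4 brown adipose groups (horizontal axes), with mean ± SD and mice 82 and 95 marked by number. These 2 libraries lie apart from the other 18 for all 4 genes, low for Hk2 and Egln1 and high for Lox and Ndrg1.

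The 2 libraries that stood apart set much of the spread of these genes in brown adipose. Hk2 was at 10.79 in mouse 82 and 11.35 in mouse 95, beside 12.52 to 13.46 in the other 18, and Pfkp, the platelet form of phosphofructokinase, was at 10.36 and 10.64 beside 11.35 to 12.30. Egln1, the main oxygen sensor, was at 10.90 and 10.96 beside 12.04 to 12.62. Ndrg1, a stress-responsive gene, was at 11.91 and 11.19 beside 9.81 to 10.20. For these 4 genes both libraries lay within the range of the 14 white adipose arrays, which was 10.31 to 12.29 for Hk2, 9.88 to 11.17 for Pfkp, 10.51 to 11.54 for Egln1 and 10.27 to 11.95 for Ndrg1. The 4 genes were chosen after their values were seen.

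In liver 0 of the 33 genes were called by limma in any of the 4 comparisons. After troglitazone 0.0220% of all genes were called at 15 days and 0.115% at 29 days, and 1 and 6 of the 33 had an unadjusted p below 0.05, beside 4.30% and 10.2% of all genes. Groups did not overlap for 0 of 33 on either day, beside 2.09% and 1.07% of all genes. The changes ran from -0.40 for Ndrg1 to 0.28 for Slc2a1 at 15 days and from -0.26 for Arnt to 0.54 for Egln3 at 29 days. After Elmiron 0% were called at 15 days and 0.00550% at 29 days, and 2 and 5 of the 33 had an unadjusted p below 0.05, beside 5.48% and 8.30% of all genes. At 15 days Pdk1 was the 1 gene without overlap, beside 1.06% of all genes, and the largest change was 0.37, for Kdm3a. The 95% interval of the change lay within 1 log2 unit of 0, that is within 2-fold, for all 33 genes in both troglitazone comparisons and for Elmiron at 15 days. For Elmiron at 29 days it did so for 31, the exceptions being Pfkfb3, a switch enzyme of glycolysis, and Ddit4. It did so for 31 genes in brown adipose on each day (not Hk2 and Ddit4 at 15 days, nor Ddit4 and Ankrd37 at 29 days), for 29 in white adipose at 15 days and for 30 at 29 days.

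Hif1a in liver after 15 days of troglitazone was at 11.00, 10.82, 11.13, 11.37 and 10.98, and at 11.07, 11.11, 11.04, 10.90 and 11.10 in the vehicle mice. After 29 days it was at 11.27, 10.97, 11.29, 10.79 and 10.85, and at 11.27, 11.17, 11.18, 10.95 and 10.99 in vehicle mice. The groups overlapped on both days, with changes of 0.02 ± 0.11 (SE, adjusted p = 0.990) and -0.08 ± 0.11 (SE, adjusted p = 0.845). With Elmiron for 15 days Hif1a was at 11.04, 11.26, 10.99, 11.28 and 11.15, and at 11.28, 11.06, 10.86, 11.05 and 10.93 in vehicle mice. At 29 days it was at 11.10, 11.32, 11.03, 10.92 and 11.04, and at 11.11, 11.21, 11.05, 11.12 and 11.42 in vehicle mice. These groups overlapped too, with changes of 0.11 ± 0.10 (SE, adjusted p = 0.998) and -0.10 ± 0.10 (SE, adjusted p = 0.779).

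Changes of Ddit4, Aldoc, Slc2a1 and Egln3 in liver, chosen after the values were seen, were not called. Ddit4 after 29 days of Elmiron was at 9.67, 8.80, 8.63, 9.71 and 9.30, beside 7.96, 8.89, 8.42, 8.40 and 8.33 in vehicle mice. Vehicle mouse 82 of that study overlapped the treated mice, and the change was 0.82 ± 0.21 (SE, adjusted p = 0.438). Aldoc in the same mice was at 10.04 to 10.38, above all vehicle mice at 9.52 to 9.99, with a change of 0.41 (adjusted p = 0.497). It was the 1 gene of the 33 without overlap, beside 1.43% of all genes. After 29 days of troglitazone Slc2a1 was at 8.77 to 9.31 and at 8.20 to 9.05 in vehicle mice, a change of 0.52 ± 0.15 (SE, adjusted p = 0.290), and Egln3 had a change of 0.54 ± 0.17 (SE, adjusted p = 0.368).

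P4ha1, a collagen prolyl hydroxylase subunit, had liver values that moved with the set of vehicle mice used. Troglitazone mice at 29 days were at 7.89, 8.49, 8.27, 8.62 and 8.36, and their vehicle mice at 8.23, 7.83, 7.93, 8.37 and 7.10, a change of 0.43 ± 0.17 (SE, adjusted p = 0.441). Elmiron mice on that day were at 7.51, 7.61, 7.98, 8.03 and 7.76, a change of 0.48 ± 0.15 (SE, adjusted p = 0.511) from their own vehicle mice. The vehicle mice of the Elmiron study were at 6.90, 7.45, 7.56, 7.34 and 7.24. Against these the change with troglitazone was 1.02 (adjusted p = 0.00135), in a fit that called 0.407% of all genes. Against the vehicle mice of the troglitazone study the change with Elmiron turned to -0.11 (adjusted p = 0.830). The 2 sets of vehicle livers differed by -0.59 for P4ha1, Elmiron study minus troglitazone study, which was not called (adjusted p = 0.202). Of the 33 genes 0 differed between the vehicle livers of the studies by limma on either day, and 0% of all genes were called. At an unadjusted p below 0.05 there were 2 and 4 of 33, beside 3.11% and 11.4% of all genes.

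Outside white adipose, tests of differences between effects called none of these genes either. The effect of troglitazone differed between brown adipose and liver for 0 of 33 genes by limma on both days. Of all genes 0.0220% and 0.0165% were called. At an unadjusted p below 0.05 there were 0 and 2 of 33, beside 3.19% and 5.40% of all genes. Without mice 82 and 95 the counts of calls were also 0 and 0, beside 0.115% and 0.269% of all genes called. In those fits 3 and 3 of the 33 had an unadjusted p below 0.05, a count not made over all genes. The effects of troglitazone and Elmiron in liver, at different doses and in different studies, differed for 0 of 33 by limma. Of all genes 0.00550% and 0.0934% were called in that contrast. An unadjusted p below 0.05 was found for 2 and 5 of 33, beside 5.97% and 12.7% of all genes. The smallest adjusted p was 0.167, for Egln3 at 29 days, where the effects were 0.54 with troglitazone and -0.33 with Elmiron, a difference of 0.88 with a 95% interval of 0.40 to 1.35. The effect differed between days for 0 of 33 genes by limma in brown adipose, in troglitazone liver and in Elmiron liver, where 0% of all genes were called, with 0, 1 and 2 at an unadjusted p below 0.05, beside 1.14%, 7.49% and 5.39% of all genes.

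The same genes differed far more between tissues than with any agent. In the vehicle mice of the troglitazone study, brown adipose differed from liver in 23 of the 33 genes at 15 days, 19 higher and 4 lower, and in 18 at 29 days, 17 higher and 1 lower. Of all genes 63.1% and 65.8% were called, 28.1% and 28.3% higher and 35.1% and 37.5% lower, so the share called is near the background. The median difference of the 33 was 0.45 and 0.46, brown adipose minus liver, and that of all genes -0.11 and -0.12. The values did not overlap for 19 and 13 of the 33, beside 57.5% and 38.3% of all genes. Without mice 82 and 95 the counts were 26 at 15 days and 23 at 29 days, beside 68.6% and 65.7% of all genes.

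Of the HIF subunits, Epas1 and Hif1a were higher in brown adipose. Epas1, which encodes HIF-2 alpha, had a difference of 1.54 at 15 days and 1.45 at 29 days, and Hif1a 0.83 and 0.80. Other probe sets of Hif1a, with lower signals, differed by 0.05, 0.11 and 1.25 at 15 days and by 0.20, -0.15 and 0.90 at 29 days, so they did not all show this difference. Hif3a and Arnt were not called on either day, with differences of -0.09 to 0.16. Of the turnover genes, Egln1 was higher in brown adipose by 2.78 and 2.37, while Egln3 and Vhl were not called. Slc2a1 was lower in brown adipose at 15 days (-0.65) and Slc16a3 was not called. Without mice 82 and 95, Egln3 was called lower at 15 days (-0.39, adjusted p = 0.0349) and Slc2a1 was also called lower at 29 days (-0.49). Slc16a3 was called higher at 29 days without them (0.56). Its levels are dim, with medians of 6.61 over 18 brown libraries and 6.33 over 40 liver arrays. Egln3 at 29 days turned from -0.19 to 0.20 without both mice, not called in either fit.

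The widest differences lay among the glycolytic genes. Hk2 in vehicle livers at 15 days was at 6.81, 7.24, 7.10, 7.07 and 7.38, beside 13.30 to 13.46 in brown adipose of the same study. No brown value came near a liver value, and the difference was 6.22 ± 0.32 (SE, adjusted p = 2.82e-19). Pfkp was at 6.34, 6.40, 6.56, 5.87 and 6.78 in these livers and at 12.22, 12.29, 12.00, 12.11 and 12.16 in brown adipose, a difference of 5.77 ± 0.26 (SE). Other probe sets of Pfkp gave 4.77 and 0.98. These liver values of Hk2 and Pfkp lie near or below the array medians of 6.80 to 6.94 and carry no detection call, so no fold is given. Pfkfb3 differed by 3.65 (12.6-fold) and Aldoa, the aldolase of muscle, by 3.34 (10.1-fold). Aldoc went the other way, at 7.26 or less in brown adipose and 9.95 to 10.28 in liver, a difference of -2.93 (7.65-fold lower in brown adipose), with -0.40 from its dim other probe set. The other probe sets gave 2.52 for Pfkfb3 and 2.31 to 3.93 for Aldoa. Pfkfb4, Pgk1, Ldha (lactate dehydrogenase A) and Pdk1, which holds pyruvate back from mitochondria, were higher in brown adipose at 15 days by 0.45 to 0.96, and Tpi1 was not called.

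At 29 days the differences were 5.62 for Hk2, 5.15 for Pfkp, 4.21 for Pfkfb3, 3.06 for Aldoa and -2.75 for Aldoc. Without mouse 82 and mouse 95 they were 6.13, 5.50, 4.22, 3.20 and -3.02. Without them Pgk1 was also called higher at 29 days (0.51, beside 0.29 with them), and Pdk1 went from 0.46 to 0.71. Outside glycolysis, Lox was higher in brown adipose by 2.88 and 2.57 (2.50 and 2.03 and, in a dim probe set, 0.19 and 0.07 from its other probe sets), P4ha1 by 1.34 and 1.44 and P4ha2 by 1.01 and 0.79. Bnip3, which tags mitochondria for removal, was higher by 0.39 and 0.60, Kdm3a by 0.50 and 0.61 and Ero1a by 0.57 and 0.43. Ddit4 (0.73) and Mxi1 (0.43) were called higher and Ankrd37 (-0.66) and Car9 (-0.35) lower at 15 days only, and Ndrg1 (0.62) higher at 29 days only. The value of Ndrg1 rested on mouse 82, at 11.91, and was 0.23 and not called without mice 82 and 95 (adjusted p = 0.108). Stc2, Higd1a and Car12 were not called on either day with every library in. Without both mice Higd1a was called higher on both days (0.26 and 0.49), Car12 lower at 15 days (-0.23) and Mxi1 higher at 29 days (0.27). Stc2 was called lower at 29 days (-0.31) without them. Ankrd37, Car9 and Car12 are dim, with means of 6.29, 6.62 and 6.27 over all arrays and no detection calls. With every library in, 0 of the 2 other probe sets of Stc2 went the same way as the one used at 29 days. Ddit4 at 29 days went from 0.46 to 0.09 without both mice and was not called in either fit.

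**Figure D4:**
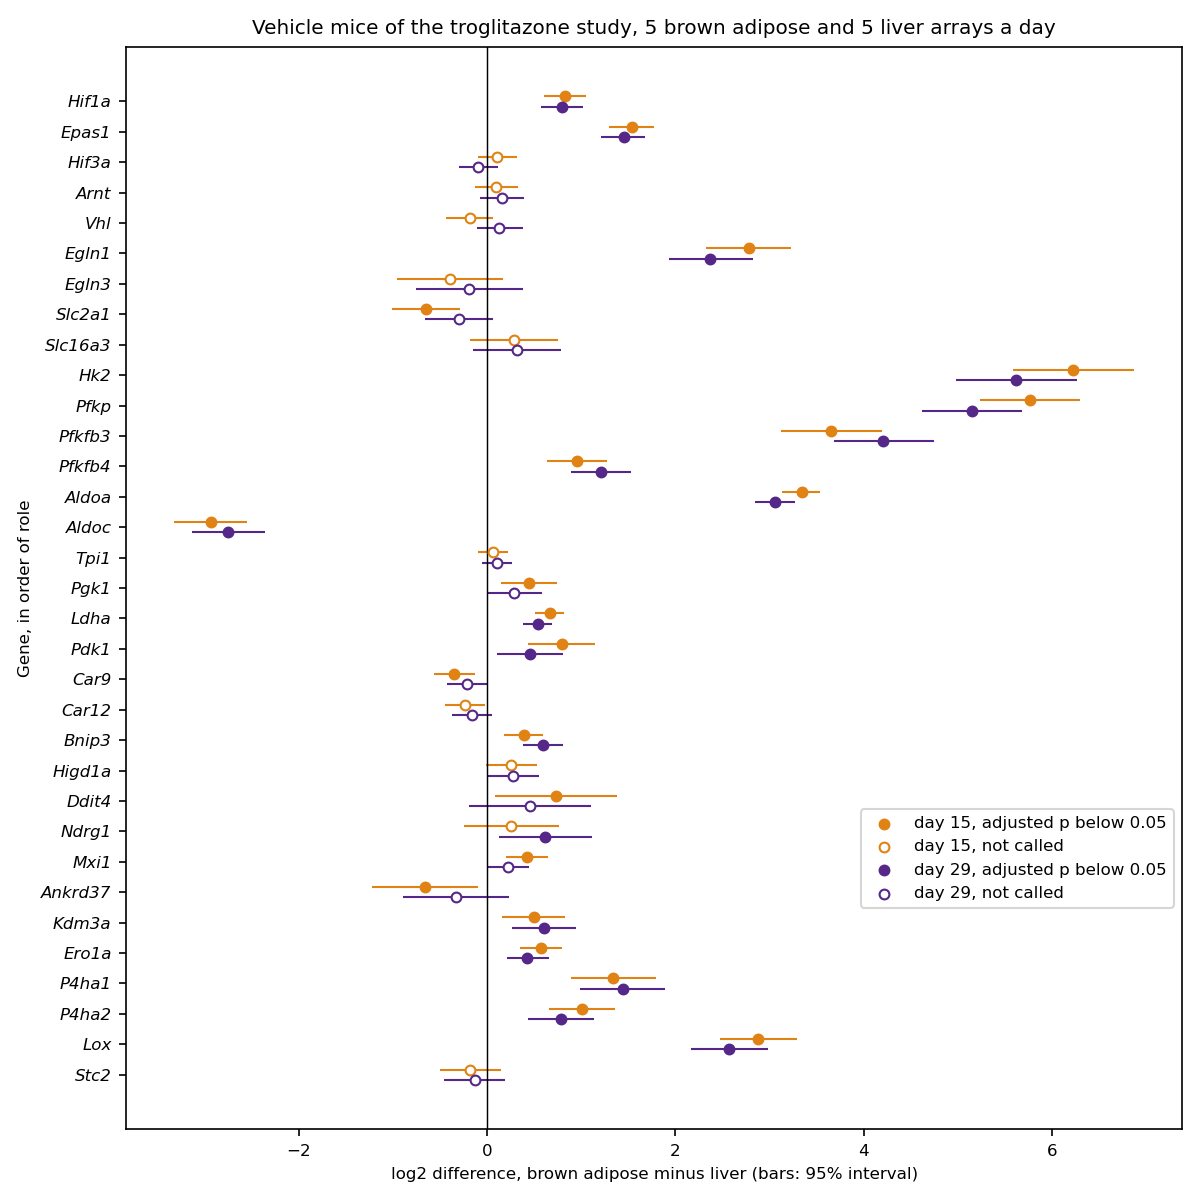
Log2 difference, brown adipose minus liver (horizontal axis), of the 33 genes (vertical axis, by role) in the vehicle mice of the troglitazone study at 15 and 29 days with every library in, with 95% intervals and filled points where called. Hk2, Pfkp, Pfkfb3, Aldoa, Lox and Egln1 lie more than 2 log2 units to the right on both days and Aldoc more than 2 to the left.

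Other genes of the pathway are counted beside the 63.1% and 65.8% of all genes called between these tissues. Of 23 other glycolytic genes 14 were higher and 5 lower in brown adipose at 15 days and 15 and 5 at 29 days. The largest at 15 days were Slc2a2, the glucose carrier GLUT2 of liver (-7.68), Pdk4, a pyruvate dehydrogenase kinase (7.16), and Pkm, the pyruvate kinase of muscle and most tissues (6.17). Of 29 other hypoxia-responsive genes 15 were higher and 3 lower at 15 days, led by Vldlr, a lipoprotein receptor (5.57), Cp, ceruloplasmin (-3.76), and Gys1, the glycogen synthase of muscle (3.63), and 13 and 4 at 29 days. Of 13 other HIF regulators 4 were higher and 4 lower at 15 days and 5 and 4 at 29 days, led by Os9 (-1.57), Siah2 (-1.06) and Crebbp (0.92).

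Over all arrays, with the 18 brown libraries, 14 white and 40 liver arrays, the ranges of brown adipose and liver did not overlap for 13 of 33 genes, beside 28.4% of all genes. White adipose and liver did not overlap for 13, beside 32.1%, and white and brown adipose for 11, beside 19.7%. Lox, for example, was at 9.70 to 11.00 in white adipose, 8.42 to 9.60 in brown adipose and 5.81 to 6.93 in liver, so that all 3 tissues were apart. Aldoa was at 13.71 to 14.46, 14.50 to 14.70 and 11.01 to 11.67. Ddit4 was higher in white adipose (10.14 to 12.12) than in brown adipose (8.19 to 9.95) and liver (7.79 to 9.71), which overlapped each other. White and brown adipose come from different studies, so tissue and study cannot be told apart and no test was made.

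Within brown adipose, levels of 2 of these genes went with the level of skeletal muscle markers in the library. The mean level of 16 skeletal muscle markers ran from 9.11 to 13.57 over the 18 brown libraries, beside 6.14 to 6.62 in liver, and was examined against the 33 genes after the marker values were seen. Slc16a3, which exports lactate, ran from 6.08 in vehicle mouse 41 to 7.93 in vehicle mouse 83, the mouse with the highest muscle level. As deviations from the group means over the 18 libraries, Slc16a3 had a Pearson r of 0.81 with the muscle level (permutation p = 0.00017, adjusted over 33 genes p = 0.00478) and a Spearman rho of 0.90 (permutation p = 0.00001, the smallest these permutations can give, adjusted p = 0.00033). Without the 2 libraries farthest from the median r was 0.84. The median level of Slc16a3 over these libraries was 6.61, below the array medians of 6.80 to 6.94, and it carries no detection call. Tpi1, triosephosphate isomerase, had an r of 0.76 (permutation p = 0.00029, adjusted p = 0.00478) and a rho of 0.82 (permutation p = 0.00005, adjusted p = 0.00082), with r at 0.88 without the 2 farthest. The libraries share tissue and study, and the part of muscle in the results above was not tested. For the other 31 genes r did not pass after adjustment, among them Pfkfb4 (0.60), Ldha (0.53), Hk2 and Lox, and Pdk1 had the lowest r (-0.63, permutation p = 0.0053, adjusted p = 0.0583).

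**Figure D5:**
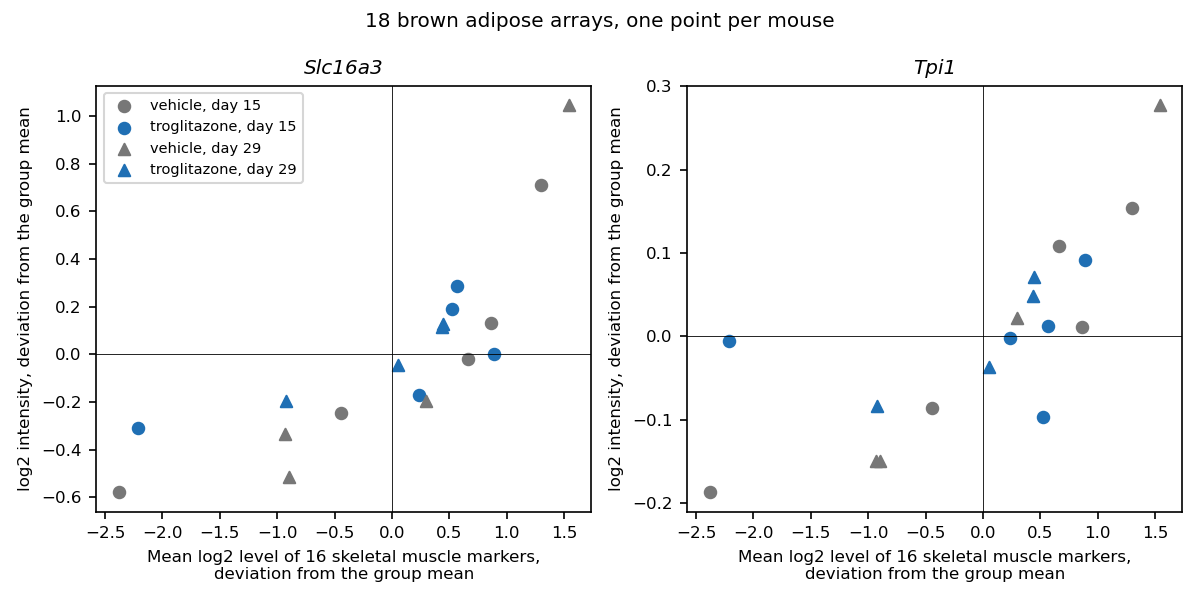
Deviation of Slc16a3 and Tpi1 from their group means (vertical axes, log2 intensity) against the deviation of the mean level of 16 skeletal muscle markers (horizontal axes, log2) in 18 brown adipose libraries, 1 point a mouse. Libraries with more muscle signal have higher levels of both genes, with r of 0.81 and 0.76.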

How the data were processed

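The values are deposited by the authors as linear intensity per probe set after RMA, per the labels. The RMA version and the set of arrays summarised together are not given in the sources here, and no detection calls were used. Total RNA was extracted with Trizol and labelled with biotin, per the labels' protocols. Of 45101 probe sets 34945 had 1 gene symbol in the platform annotation, 932 several, 9160 none and 64 were controls. Replicates are distinct mice by the labels, with within-group correlations of 0.9054 to 0.9965 over 138 pairs and 0 identical pairs. The number of arrays limits the precision.

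Log2 intensity was fitted with limma 3.58.1 in R 4.3.3 (lmFit, eBayes), with the 4 groups of a tissue and study in each fit and 8 groups for contrasts between tissues or agents. A Benjamini-Hochberg adjusted p below 0.05 over 18193 genes was a call, with no filter. Tables were made with Python 3.11.15, pandas 2.3.3 and scipy 1.17.1, correlations were tested with 100000 permutations, and the fit was tested on simulated data. With 200 genes changed and normal noise, 78% (white adipose at 15 days) to 98% of 2-fold changes were called. False calls were 5.66% to 8.81% of the calls over the 8 comparisons, above the threshold of 0.05 in each. The members, gene lists and marker lists were chosen with earlier results of these data known. Genes named are all called members, Hif1a, up to 6 called members of a contrast between tissues, up to 3 called genes of each other list and comparison, every member by its role, and others said in the text to be chosen later, from their values. Marker lists were those of brown and white adipocytes, hepatocytes, skeletal muscle, epithelium, epididymis, endothelium, macrophages, lymphocytes and erythroid cells. In white adipose at 15 days 1 of 12 endothelium markers was called higher and 1 of 7 erythroid markers lower, and 0 of 12 macrophage and 0 of 8 lymphocyte markers by limma.

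Alternatives changed 1 choice at a time: median centring or quantile normalization, a filter that omitted the dimmer 50% of genes, probe sets averaged per gene, trended and robust eBayes, only the compared groups in the fit, vehicle livers taken from the other study, a block for the animal, white adipose at 29 days without mice 85, 86, 93 and 95, and each array omitted in turn. Leaving out brown libraries of mice 82 and 95, or the liver of Elmiron mouse 92, was added after the data were seen. By the labels, brown adipose and liver arrays of equal number share a mouse. Over 15 such mice, deviations from group means correlated from -0.135 to 0.151, 1 of them over 0.1.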

Additional observations from a re-analysis of the deposited data

Results flagged for a closer look

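Of 48 group values of 4 or 5 arrays examined for the genes the text turns on, 5 held an array far from the rest of its group. Some of these genes were named for their values, and 1 library, mouse 82, gives 3 of the 5. The count is therefore not set against a chance rate. In brown adipose of vehicle mice at 29 days, mouse 82 was low for 3 glycolytic genes: Hk2 was at 10.79 with the other 4 mice at 13.26 to 13.37, Pfkp at 10.36 with the others at 11.91 to 12.30, and Aldoa at 13.92 with the others at 14.59 to 14.70. This is one of the libraries whose brown adipocyte markers were far below those of the other brown libraries. Lox in liver of vehicle mouse 46 of the troglitazone study at 15 days was at 5.81, with the other 4 mice at 6.38 to 6.56. Aldoc in white adipose of fenretinide mouse 91 at 29 days was at 5.77, with the other 3 treated mice at 6.62 to 6.76.

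The effect of fenretinide on Ankrd37 in white adipose differed between 15 and 29 days by limma's test of the difference, by -1.21 (adjusted p = 0.0371). Under quantile normalization, median centring, the mean of probe sets and trended and robust eBayes the adjusted p was 0.0340 to 0.0497. The difference was not refitted with single mice left out. At 15 days alone the call of Ankrd37 was lost without some single mice, as given above. Its levels are dim, and the filter on dimmer genes removed it.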

How the results depend on the processing

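The 33 genes gave few calls, and those in white adipose were close to the threshold. At 15 days of fenretinide, 2 genes were called as reported, 1 without the dimmer 50% of genes, 4 with median centring (2 higher, 2 lower), 1 with trended and robust eBayes, 0 with the 2 groups fitted alone by limma, and 0 to 2 with 1 array left out. At 29 days, 1 was called as reported, 2 without the dimmer genes, 0 with the groups alone, 0 without vehicle mice 85 and 86 and fenretinide mice 93 and 95, and 0 to 2 with 1 array left out. The difference between days in white adipose went from 1 to 0 called without the dimmer genes, a filter that left 28 of the 33 to test and not Ankrd37. In brown adipose, leaving out mice 82 and 95 gave 1 called gene on each day instead of 0, and leaving out 1 array gave 0 to 1 at 29 days. In liver the other study's vehicle mice gave 1 called gene at 29 days of troglitazone instead of 0. Aldoc at 29 days in white adipose, at -0.07, was at 0.07 as the mean of its probe sets and 0.17 without fenretinide mouse 91, with 1 array left out it ran from -0.16 to 0.17, and it was called in none of these. Median centring moved the median change of all genes at 15 days of fenretinide from -0.04 to -0.20, and the change of Aldoc on that day from 1.88 to 1.72 (adjusted p = 0.0432). Quantile normalization moved the median difference of all genes between brown adipose and liver from -0.11 to -0.00 at 15 days and from -0.12 to -0.01 at 29 days, with 22 called on each day (20 higher, 2 lower). Leaving out the liver of Elmiron mouse 92 changed no count. The other 176 counts of called genes stayed within 1.5 times the reported count. The replicate block, with the animal as a random block across brown adipose and liver, gave 23 and 18 called genes between tissues and 0 and 0 for the effect of troglitazone, and changed no count of calls. Where the causes of these differences are not given by the setting itself, the cause was not tested. Arrays without detection calls limit what can be said of dim genes such as Ankrd37, Slc16a3, Car9 and Car12.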
